A study of Mus musculus with 29 samples.

Results

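Non-tumour liver of mice given the carcinogen diethylnitrosamine (DEN) and then alcohol was compared between 5 libraries labelled IL17RA-/- and 5 wild-type (WT) libraries. These 10 libraries are those named non-tumour, alcohol and knockout or wild type in the deposited table, out of 29 libraries in the study. Of 22187 genes listed, 12561 reached 1 CPM (reads scaled to a common library total) or more in at least 3 of the 10 libraries and were tested. All mice were C57BL/6, were injected with 25 mg/kg DEN at 2 weeks of age and were fed for 18 weeks. The treatment of both groups is written HFD_alcohol in the sample labels, while the series text describes liquid ethanol feeding. The other libraries of the study come from tumours and from mice on HFD, of which the 3 labelled and 3 WT non-tumour libraries on HFD are used below for 1 comparison. The genotype is given as IL17RA-/- or WT, with no promoter, Cre line or cell type named, and mice of both genotypes received the carcinogen and the feed. The libraries labelled IL17RA-/- are called labelled replicates 1 to 5 below, because Il17ra itself did not separate them from WT.

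Interleukin 17A is a cytokine made mainly by T cells. It binds a receptor built from IL17RA and IL17RC, and the adaptor ACT1 (gene Traf3ip2) and TRAF6 carry the signal to NF-kB and to proteins that stabilise short-lived messenger RNAs. In liver the receptor is present on macrophages, stellate cells and hepatocytes, and its known outputs include neutrophil-attracting chemokines, lipocalin 2 and acute phase proteins. Hepatocytes also make cholesterol, through a chain of enzymes whose genes are switched on together by the transcription factor SREBP2 when membrane sterols are low.

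Il17ra (ENSMUSG00000002897, chr6:120463247-120487559, GRCm38) was at 30.8, 20.1, 37, 15.9 and 26.9 CPM in labelled replicates 1 to 5, and at 42.5, 16.1, 27.3, 20.6 and 31.1 CPM in WT replicates 1 to 5. The groups overlapped, with the lowest value in labelled replicate 4 and the next lowest in WT replicate 2. The log2 fold change, labelled minus WT on the log2(CPM + 1) scale used throughout, was -0.06 ± 0.27 (SE), and 0.25 without labelled replicates 2 and 4. A value summed over a gene does not check a deletion of some of its exons, and no source used here says which part was deleted. The co-receptor subunit Il17rc was at 18.1, 17.3, 22.3, 20.1 and 21.9 CPM in the labelled libraries, in order of replicate, against 15.9, 19.5, 20.8, 17.8 and 18.9 CPM in WT, and the groups overlapped. Of the adaptors, Traf6 had a log2 fold change of 0.08 ± 0.11 and Traf3ip2, a low gene at 1.12 to 4.08 CPM, one of 0.21 ± 0.26. The other receptor subunits Il17rb and Il17rd had values of 0.11 ± 0.21 and -0.30 ± 0.20, and Il17re was at 0 to 0.306 CPM, too low to be tested. Across 14 tested members of the receptor and adaptor list of 17, 9 log2 fold changes were positive and 5 negative, between -0.30 and 0.28. None had groups that did not overlap, against 0.414% of all genes. The ligand genes Il17a and Il17f were each listed above 0 in 1 of the 10 libraries, in WT replicate 1 and labelled replicate 3, at the level of 1 count.

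Depth was similar in all 10 libraries. The expected counts recovered from the steps of the CPM values summed to between 5795338 and 7625517 per library, and the detection floor of 3 counts equalled 0.393 to 0.518 CPM. The 10 most abundant genes held 14.6% to 17.4% of each library. The hepatocyte markers were present throughout, with Alb at 31600 to 44570 CPM and Hnf4a at 504 to 777 CPM. Markers of pancreas, fat and muscle were too low to be tested apart from Cela1 (Adipoq at 0 to 0.141 CPM, Ckm at 0 in all 10). T cell, B cell and neutrophil markers were low as well, with Cd3e at 0 to 1.55 CPM, Cd8a at 0.283 to 2.23 CPM, Nkg7 at 0.158 to 2.93 CPM, Cd79a at 0.279 to 0.919 CPM, Ms4a1 at 0.14 to 1.76 CPM, S100a8 at 0 to 2.85 CPM, S100a9 at 0.14 to 4.83 CPM and Retnlg at 0 to 0.677 CPM. The labels do not tie libraries to animals, so p-values measure only the spread between these libraries, which may be technical.

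Limma, on log2(CPM + 1) with Benjamini-Hochberg adjustment, called 0 of 12561 genes (0%), and the smallest adjusted p was 1. At an unadjusted p under 0.05 there were 308 genes (2.45%), 214 higher in labelled libraries (1.7%) and 94 lower (0.748%). That share is below the 0.05 that such a threshold passes on average when no gene differs. After median-ratio rescaling of the libraries the split was 173 higher and 159 lower, also with 0 called. Limma-voom on the recovered expected counts called 0 as well. The genotype groups did not overlap at all in 42 genes that were higher (0.334%) and 10 that were lower (0.0796%) in labelled libraries. The median log2 fold change over all tested genes was 0.014, with 54.4% positive and 45.6% negative. Without labelled replicates 2 and 4 that median was 0.094. Because no gene passed, every gene below is described by its values, and none is said to have risen or fallen.

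The labelled group was not uniform. Labelled replicate 2 was the lowest of the 10 libraries in 3567 genes (28.4%) and labelled replicate 5 the highest in 2858 (22.8%), whereas WT replicate 5 was the lowest in 619 and the highest in 483. Labelled replicates 2 and 4 lay together beyond the other 8 libraries in 2521 genes, above them in 448 (3.57%) and below them in 2073 (16.5%). The pair with the next highest such count was labelled replicate 3 with WT replicate 1, at 1709 genes. On the first principal component, with 46.6% of the variance, labelled replicates 2 and 4 were at 51.4 and 40.1 and the other 8 libraries between -35.6 and 12.9. Each was the other's nearest neighbour, with a Pearson correlation across genes of 0.985. By the same measure labelled replicate 3 and WT replicate 1 were nearest each other, at 0.987, so the wider split of the libraries did not follow the genotype label. No 2 libraries of a group matched within counting noise.

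**Figure D1:**
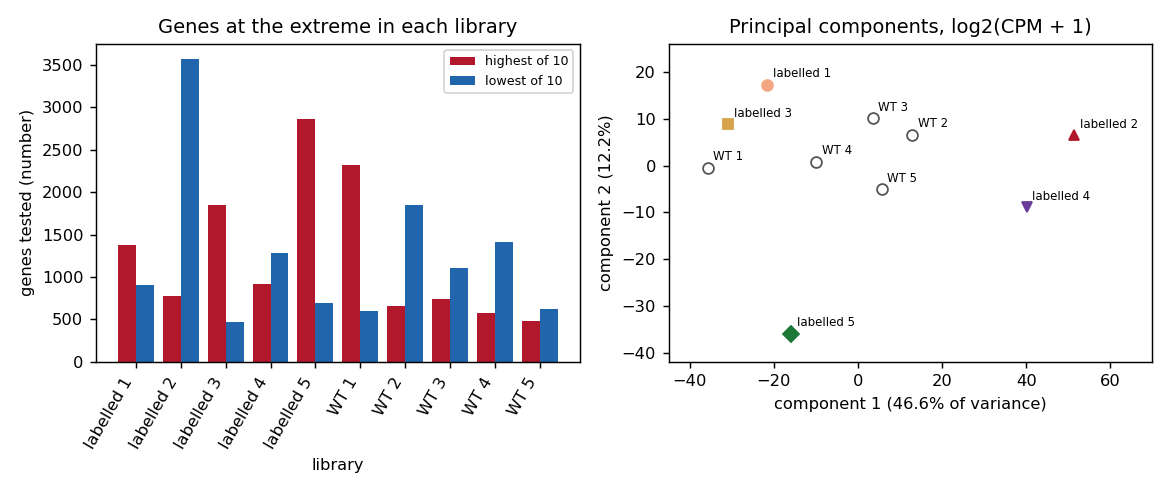
Left, number of tested genes in which each of the 10 libraries was the highest (red) or the lowest (blue); right, the libraries on the first 2 principal components of log2(CPM + 1), with open circles for WT and filled symbols for libraries labelled IL17RA-/-. Labelled replicate 2 has the tallest blue bar, at 3567 genes, and labelled replicates 2 and 4 stand at the right, at 51.4 and 40.1 on component 1.

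The cholesterol synthesis genes had higher means in the labelled libraries, and most of the distance came from labelled replicates 2 and 4. The labelled mean was higher in 21 of 22 members (54.4% of all genes). Their median was 0.95 against 0.014 for all genes, and 17 were at an unadjusted p under 0.05, against 1.7% of all genes in that direction, while limma called none. In 19 of the 22, labelled replicates 2 and 4 were both above the other 8 libraries, against 3.57% of all genes. Without both, 21 were positive, all but Tm7sf2, with a median of 0.35 against 0.094 for all genes. Summed CPM over the list was 4150 and 3361 in labelled replicates 2 and 4, between 1528 and 1908 in the other 3 labelled libraries and between 1151 and 1462 in WT.

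The first steps take acetyl-CoA to mevalonate. Hmgcs1 (ENSMUSG00000093930), the HMG-CoA synthase, was at 154, 660.3, 168, 557 and 249.7 CPM in labelled replicates 1 to 5 and 138, 146, 152, 132 and 110.2 CPM in WT replicates 1 to 5. Every labelled library lay above every WT library, by a wide margin in replicates 2 and 4, a moderate one in replicate 5 and a narrow one in replicates 1 and 3. The log2 fold change of Hmgcs1 was 1.15 ± 0.37, and 0.47 without labelled replicates 2 and 4 (limma adjusted p = 1 with all libraries). The mevalonate kinase Mvk, the phosphomevalonate kinase Pmvk and the decarboxylase Mvd had log2 fold changes of 0.82 ± 0.33, 1.11 ± 0.36 and 1.11 ± 0.49.

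The next steps build isoprenoid units. Idi1, with the highest log2 fold change of the list, the isomerase that makes the starter unit for prenyl chains, was at 25.1, 298, 14.5, 179.8 and 36.7 CPM in labelled replicates 1 to 5, and at 11.3, 14.7, 14, 16.3 and 10.7 CPM in WT replicates 1 to 5. Labelled replicates 2 and 4 exceeded the highest WT library more than 10-fold, whereas labelled replicate 3 lay inside the WT range. The log2 fold change of 2.09 ± 0.70 became 0.80 without those 2 libraries. Fdps, which joins the units to farnesyl pyrophosphate, was at 30.6, 307, 33.5, 209 and 56.9 CPM in the labelled libraries, in order of replicate, against 28.3, 33.7, 26.5, 28.1 and 18.4 CPM in WT. Labelled replicate 5 was also above all WT libraries, and labelled replicates 1 and 3 were not. Ggps1, which makes geranylgeranyl pyrophosphate for protein prenylation instead of sterol, was at 12.5, 9.46, 10.7, 10.9 and 11.7 CPM in labelled replicates 1 to 5 and 14.5, 10.4, 9.63, 11 and 10.2 CPM in WT replicates 1 to 5, with labelled replicate 2 the lowest of the 10. With a log2 fold change of 0.00 ± 0.13, it was the single cholesterol list member without a positive value.

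In the sterol branch, Fdft1 (squalene synthase) had a log2 fold change of 0.93 ± 0.32 and Lss (lanosterol synthase) one of 0.97 ± 0.31. Dhcr7, which makes cholesterol from its last precursor, had 1.13 ± 0.37. Sqle, the squalene epoxidase and a second control point of the chain, was at 4.49, 105, 6.83, 60.2 and 24.5 CPM in labelled replicates 1 to 5, and at 5.83, 4.14, 2.68, 20.5 and 6.95 CPM in WT replicates 1 to 5. WT replicate 4 lay above labelled replicates 1 and 3, so the groups overlapped. Cyp51, the lanosterol demethylase, was at 29.8, 296, 34, 212 and 80.8 CPM in the labelled libraries, in order of replicate, against 34.8, 28.6, 23.5, 35.9 and 24.3 CPM in WT, again with labelled replicates 1 and 3 inside the WT range. Msmo1 and Nsdhl, which remove the methyl groups at carbon 4, had log2 fold changes of 1.31 ± 0.54 and 1.33 ± 0.47, and 0.33 and 0.50 without labelled replicates 2 and 4. Tm7sf2, a sterol reductase, was at 23.1, 101, 23.5, 96.2 and 29.5 CPM in labelled replicates 1 to 5 and 23.3, 34.7, 23.1, 23.9 and 26.1 CPM in WT replicates 1 to 5; without those 2 libraries its log2 fold change was -0.04. Lbr, a nuclear membrane protein with the same reductase activity, was at 15.6 to 21.3 CPM over all 10 libraries, with a log2 fold change of 0.14 ± 0.10.

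Erg28, a scaffold protein of the demethylation steps that was not on the list, was at 27.1, 41.2, 27.2, 41.1 and 31.4 CPM in labelled replicates 1 to 5, and at 23.8, 22.7, 26.5, 21.2 and 21 CPM in WT replicates 1 to 5. The lowest labelled library lay just above the highest WT library. The log2 fold change was 0.51 ± 0.14, or 0.30 without labelled replicates 2 and 4.

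**Figure D2:**
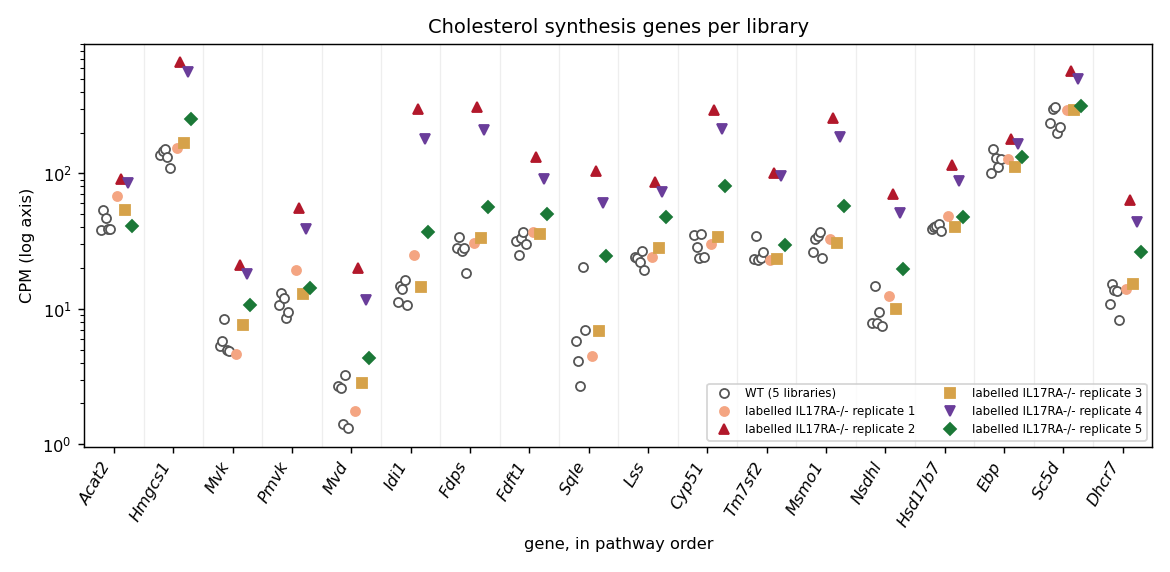
CPM on a log axis for 18 of the 22 cholesterol synthesis genes in pathway order; each point is 1 library, open circles the 5 WT libraries and filled symbols the 5 labelled libraries. Red upward triangles (labelled replicate 2) and purple downward triangles (labelled replicate 4) lie above the rest in most genes, and green diamonds (labelled replicate 5) lie between them and WT in most.

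The promoters of 4 of these genes are shown because the members varied together between libraries; the 4 were chosen with their values known. They are the 250 bases before the RefSeq start site (GRCm38.p6), written 5′ to 3′ on the gene's strand, with capitals for 2 motifs searched on both strands: TCACNCCAC, a form of the sterol regulatory element that SREBP proteins bind, and CCAAT, which reads ATTGG on the other strand, the box bound by NF-Y, a known partner of SREBP2. The motifs share no overlapping match in these windows. The windows lie at chr13:119690101-119690350 (Hmgcs1, plus strand), chr13:8885356-8885605 (Idi1, plus strand), chr5:4104698-4104947 (Cyp51, minus strand) and chrX:72918271-72918520 (Nsdhl, plus strand).
Hmgcs1: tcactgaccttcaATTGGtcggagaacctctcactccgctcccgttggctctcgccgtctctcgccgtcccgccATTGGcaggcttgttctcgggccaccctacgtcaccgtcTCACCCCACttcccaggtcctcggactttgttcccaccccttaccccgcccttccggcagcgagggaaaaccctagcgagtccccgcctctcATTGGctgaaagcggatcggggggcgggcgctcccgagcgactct
Idi1: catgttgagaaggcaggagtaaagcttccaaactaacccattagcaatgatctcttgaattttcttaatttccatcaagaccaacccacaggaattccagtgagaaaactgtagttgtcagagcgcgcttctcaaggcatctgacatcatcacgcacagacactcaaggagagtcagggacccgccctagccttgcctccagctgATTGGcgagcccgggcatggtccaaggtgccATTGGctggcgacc
Cyp51: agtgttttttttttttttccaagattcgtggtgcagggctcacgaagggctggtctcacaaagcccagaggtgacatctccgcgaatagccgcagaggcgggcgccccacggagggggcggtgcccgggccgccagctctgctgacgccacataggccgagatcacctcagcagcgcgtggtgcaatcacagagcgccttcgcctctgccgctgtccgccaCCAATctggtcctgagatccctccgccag
Nsdhl: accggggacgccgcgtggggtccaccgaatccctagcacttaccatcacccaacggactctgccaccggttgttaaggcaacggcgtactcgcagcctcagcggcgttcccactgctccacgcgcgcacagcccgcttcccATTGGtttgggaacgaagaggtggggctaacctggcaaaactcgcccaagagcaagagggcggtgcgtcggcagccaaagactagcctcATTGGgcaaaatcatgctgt
In the Hmgcs1 window TCACNCCAC matched once, starting 137 bases before the start site, and CCAAT matched 3 times. Idi1 and Nsdhl each held 2 CCAAT matches and Cyp51 held 1, with no match to TCACNCCAC in those letters. Of the 22 cholesterol genes, 17 had a RefSeq window; 1 of the 17 held TCACNCCAC (5.88%) and 16 held CCAAT (94.1%). Over 27025 genes with windows of the same length, 1.22% held TCACNCCAC and 37.5% held CCAAT. These are matches of letters and not measured binding.

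Genes that sense and import sterol followed the enzymes in part. Of 9 tested members of the SREBP2 control and uptake list of 10, 8 were positive (54.4% of all genes) with a median of 0.46. Without labelled replicates 2 and 4 the median was 0.16, against 0.094 for all genes. Srebf2, which encodes SREBP2, was at 17.5, 37.9, 17.1, 30.1 and 26.1 CPM in the labelled libraries, in order of replicate, against 17.8, 16.2, 17.7, 15.3 and 15.9 CPM in WT. The 3 highest of the 10 were labelled replicates 2, 4 and 5, while labelled replicates 1 and 3 lay inside the WT range. Insig1, which retains SREBP2 in the endoplasmic reticulum and is itself a target, was at 152, 640.2, 239, 394 and 239 CPM in labelled replicates 1 to 5 and 169, 274, 230.3, 154 and 134 CPM in WT replicates 1 to 5. It was highest in labelled replicates 2 and 4, while labelled replicate 1 was below 4 of the 5 WT libraries. Stard4, a sterol carrier, had a log2 fold change of 0.76 ± 0.37. The negative member was Mylip, a ubiquitin ligase and LXR target, at -0.30 ± 0.26.

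Genes of cholesterol efflux and of the sterol receptor LXR went the other way in the same 2 libraries. Of 12 members, 11 log2 fold changes were negative (45.6% of all genes) with a median of -0.16. In 8 of the 12 labelled replicates 2 and 4 were both below the other 8 libraries, against 16.5% of all genes. None was at an unadjusted p under 0.05, against 2.45% of all genes. Abcg1, which exports cholesterol to HDL and is abundant in macrophages, was at 35.1, 6.84, 58.6, 12.9 and 36.1 CPM in labelled replicates 1 to 5, and at 63.3, 37.4, 32.7, 34.3 and 30 CPM in WT replicates 1 to 5. Labelled replicates 2 and 4 were lowest and the other 3 labelled libraries lay within the WT range. Abcg5, a subunit of the canalicular sterol pump, was at 193, 56.2, 201, 84.1 and 229 CPM in the labelled libraries, in order of replicate, against 163, 339.7, 379.9, 144 and 266 CPM in WT. The 3 highest values were WT and the 2 lowest were labelled replicates 2 and 4. Its partner Abcg8 had a log2 fold change of -0.70 ± 0.34, Abca1, which loads HDL, one of -0.18 ± 0.13, and Nr1h3, the gene of LXR alpha, one of -0.04 ± 0.09. For the list the median was -0.09 without labelled replicate 2, and 0.01 without replicates 2 and 4, against 0.094 for all genes.

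Fatty acid and triglyceride synthesis genes had a median log2 fold change of 0.41 over 22 members, against 0.014 for all genes. Of these, 16 were positive (54.4% of all genes). At an unadjusted p under 0.05 there were 5, all higher in labelled libraries, against 1.7% of all genes in that direction. Unlike the cholesterol list, the median without labelled replicates 2 and 4 was close to that with all libraries, at 0.36 (0.094 for all genes). Those 2 libraries were both on top in 5 of 22, against 3.57% of all genes. Fads1, the delta-5 desaturase of polyunsaturated fatty acids, was at 277, 558, 211, 434 and 284 CPM in labelled replicates 1 to 5 and 195, 143, 209, 148 and 149.5 CPM in WT replicates 1 to 5. The lowest labelled library was just above the highest WT library. For Fads1 the log2 fold change was 0.99 ± 0.24, and 0.61 without labelled replicates 2 and 4. Gpam, which starts triglyceride assembly, was at 284, 258, 325, 258 and 251 CPM in labelled replicates 1 to 5, and at 200.4, 246, 258, 182 and 175 CPM in WT replicates 1 to 5; the labelled libraries began near the top of the WT range, and the log2 fold change was 0.39 ± 0.13. Fasn, fatty acid synthase, was at 598, 680.1, 903, 706 and 484 CPM in the labelled libraries, in order of replicate, against 511, 579, 884, 279.9 and 219 CPM in WT, a wide range in both groups, with WT replicates 4 and 5 lowest. Acacb and Acss2, an acetyl-CoA carboxylase and an acetyl-CoA synthetase, had log2 fold changes of 0.94 ± 0.33 and 0.95 ± 0.34. For Acly, Acaca, Elovl6 and Pnpla3, of acetyl-CoA supply, malonyl-CoA supply, chain elongation and lipid remodelling, they were 0.58 ± 0.27, 0.21 ± 0.22, 0.37 ± 0.30 and 0.51 ± 0.36. Srebf1, the SREBP gene more tied to fatty acids, was negative at -0.38 ± 0.43, and its lowest values were those of labelled replicates 2 and 4 and WT replicate 4. Scd1, the stearoyl desaturase, had -0.16 ± 0.39.

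Fatty acid oxidation genes and targets of the lipid sensor PPARA were mostly slightly negative, 23 of 27 (45.6% of all genes), with a median of -0.17. At an unadjusted p under 0.05 there were 3, all lower in labelled libraries, against 0.748% of all genes in that direction. Cyp4a14, an omega-hydroxylase and PPARA target, was at 289, 6.42, 153, 95.3 and 223 CPM in labelled replicates 1 to 5 and 229, 129, 330.3, 549 and 237 CPM in WT replicates 1 to 5. Labelled replicate 2 was far below all others, replicate 4 was next, and the other 3 lay within the WT range. Ehhadh, of peroxisomal oxidation, was at 392, 190.3, 378, 291 and 292 CPM in labelled replicates 1 to 5, and at 331, 395, 452, 542 and 420 CPM in WT replicates 1 to 5, and its log2 fold change was -0.50 ± 0.19. Acot1, a thioesterase with close paralogs, was at 25.6, 22.1, 18.2, 20.6 and 19.4 CPM in the labelled libraries, in order of replicate, against 40.7, 25.5, 22.7, 78.5 and 32.6 CPM in WT; WT replicate 4 was far above the rest, and the log2 fold change was -0.75 ± 0.28, or -0.76 without labelled replicates 2 and 4. Mitochondrial enzymes varied little, with log2 fold changes of -0.10 ± 0.08 for Cpt2 and -0.13 ± 0.08 for Hadha. Ppara itself had 0.07 ± 0.16, and its targets Cpt1a, Pdk4, Fgf21 and Cyp4a10 had -0.04 ± 0.18, -0.51 ± 0.44, -0.04 ± 0.42 and -1.24 ± 0.63. Over the oxidation list the median was -0.11 without labelled replicate 2 and -0.08 without replicates 2 and 4. In the lipid droplet list 12 of 16 were negative (45.6% of all genes) with a median of -0.15. Without labelled replicates 2 and 4, 12 of 16 were positive with a median of 0.09, level with the 0.094 of all genes. Cidec, a droplet fusion protein of steatotic liver, was at 134, 2.09, 107, 7.87 and 22.6 CPM in labelled replicates 1 to 5 and 96.7, 18.7, 47.7, 60.5 and 19.5 CPM in WT replicates 1 to 5. Labelled replicates 2 and 4 were lowest, and labelled replicate 5 and WT replicates 2 and 5 came next. Cd36, a fatty acid importer, Cidea, a second droplet protein, and Plin2, a droplet coat protein, had log2 fold changes of -0.77 ± 0.51, -0.51 ± 0.60 and -0.08 ± 0.21.

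The IL-17-responsive genes, the outputs the receptor is known for, did not separate the genotypes. Of 20 listed, 12 were tested. Of these, 11 were negative (45.6% of all genes) and 1 positive with a median of -0.29. At an unadjusted p under 0.05 there was 1, lower in labelled libraries, against 0.748% of all genes in that direction. Their summed level ran from 187 to 608 CPM in labelled and from 300.4 to 747 CPM in WT libraries. In 7 of the 12 labelled replicates 2 and 4 were both lowest, against 16.5% of all genes. Lcn2, lipocalin 2, was at 113, 3.35, 127, 10.8 and 202 CPM in labelled replicates 1 to 5, and at 167, 36, 32.5, 239 and 39.2 CPM in WT replicates 1 to 5. The labelled range contained all WT libraries but replicate 4, and values over 100 CPM came in 3 labelled and 2 WT libraries. Cxcl1, a neutrophil chemokine, was at 10.1, 5.16, 16.3, 3.94 and 19.8 CPM in the labelled libraries, in order of replicate, against 19.6, 9.34, 5.05, 14.3 and 15.7 CPM in WT. The WT range lay inside the labelled range, with a log2 fold change of -0.29 ± 0.44. Ccl2, a monocyte chemokine, was at 1.92, 0.697, 7.13, 0.703 and 2.76 CPM in labelled replicates 1 to 5 and 8.81, 2.91, 1.58, 3.53 and 4.46 CPM in WT replicates 1 to 5, and the highest value was that of WT replicate 1. Mmp9, a gelatinase, was at 0.641, 0.14, 0.891, 0.422 and 1.21 CPM in labelled replicates 1 to 5, and at 1.63, 2.14, 1.42, 0.989 and 1.31 CPM in WT replicates 1 to 5; 4 of 5 labelled libraries were below all WT libraries and its log2 fold change was -0.61 ± 0.21, close to the floor. Steap4, a metalloreductase, Saa3, an inducible serum amyloid, and S100a8, a neutrophil alarmin, had -0.10 ± 0.29, -0.52 ± 0.35 and -0.02 ± 0.40. Csf2 and Csf3 were at 0 in all 10 libraries, and Il6 and Ccl20 were at or under the floor in every one. The list median was 0.24 without labelled replicates 2 and 4, against 0.094 for all genes. It was between -0.54 and -0.08 without any 1 library, and -0.57 with limma-voom, so its negative sign rested on those 2 libraries.

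Macrophage genes separated labelled replicates 2 and 4 from all other libraries of both labels. Resident liver macrophages are called Kupffer cells, and 16 of their 17 markers had a negative log2 fold change (45.6% of all genes). The median was -0.59, and in 15 of the 17 labelled replicates 2 and 4 were both below the other 8 libraries, against 16.5% of all genes. Their summed level was 548 and 540.1 CPM in labelled replicates 2 and 4, between 1542 and 2306 in labelled replicates 1, 3 and 5, and between 1398 and 2422 in WT. In bulk tissue, fewer cells of a type and less RNA per cell cannot be told apart.

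Clec4f, a lectin receptor selective for Kupffer cells, was at 209, 73.9, 261, 69.3 and 239 CPM in the labelled libraries, in order of replicate, against 297, 215, 208, 195 and 204 CPM in WT. Labelled replicates 1, 3 and 5 matched or exceeded most WT libraries, while replicates 2 and 4 were lower than all of them. Cd5l, a secreted scavenger protein, was at 462, 52.3, 613, 62.1 and 351 CPM in labelled replicates 1 to 5 and 583, 358, 312, 372 and 332 CPM in WT replicates 1 to 5, with the same 2 libraries lowest. Marco, a scavenger receptor, was at 53.1, 5.58, 75.3, 4.08 and 22.3 CPM in labelled replicates 1 to 5, and at 51.2, 36.2, 20.4, 43 and 36.3 CPM in WT replicates 1 to 5; labelled replicate 3 was the highest of all 10 and replicates 2 and 4 the lowest. Timd4, a marker of long-lived Kupffer cells, was at 13.3, 3.91, 9.8, 4.5 and 6.9 CPM in the labelled libraries, in order of replicate, against 11.7, 13.9, 8.05, 10.7 and 9.57 CPM in WT, with labelled replicate 5 also below all WT libraries. Fcna, a ficolin, followed another order, at 29.7, 37, 57.3, 25 and 45.7 CPM in labelled replicates 1 to 5 and 52.7, 71.7, 56.2, 45.8 and 61.5 CPM in WT replicates 1 to 5. Labelled replicate 1 was below replicate 2, and 4 of the 5 labelled libraries were below all WT libraries. The difference was -0.60 ± 0.21 on the log2 scale, and -0.41 without labelled replicates 2 and 4, while the list median then turned to 0.18. Cd163, a haemoglobin receptor, had -0.57 ± 0.30 with all libraries and -0.43 without those 2. For Vsig4, a complement receptor, and Adgre1, the F4/80 antigen, the pairs were -0.80 ± 0.42 and -0.06, and -0.65 ± 0.46 and 0.18. Over the list the median was -0.35 and -0.31 without labelled replicate 2 or 4 alone.

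Markers of monocyte-derived macrophages were lowest in the same 2 libraries in 10 of 14 members, against 16.5% of all genes. Their summed level ran from 70.3 to 373 CPM in labelled and from 83.2 to 348 CPM in WT libraries. Gpnmb, a marker of lipid-laden macrophages, was at 57.4, 0.279, 80.6, 0.422 and 12.8 CPM in labelled replicates 1 to 5, and at 47.3, 1.53, 5.05, 29.1 and 5.38 CPM in WT replicates 1 to 5. It was at or under 3 counts in labelled replicates 2 and 4 and varied from 1.53 to 80.6 CPM over the others. Trem2, a lipid receptor of such macrophages, was at 8.02, 0.279, 10.7, 0.281 and 3.28 CPM in the labelled libraries, in order of replicate, against 6.64, 1.53, 2.21, 5.94 and 1.44 CPM in WT, with 2 counts in each of labelled replicates 2 and 4. Lgals3, galectin 3, was at 39.6, 2.79, 69.8, 1.97 and 21.9 CPM in labelled replicates 1 to 5 and 69, 15.8, 13.9, 31.8 and 15.5 CPM in WT replicates 1 to 5, and Mmp12, the macrophage elastase, at 42, 0, 86.7, 1.27 and 18.3 CPM in labelled replicates 1 to 5, and at 128, 10.9, 10.3, 59.6 and 9.57 CPM in WT replicates 1 to 5. In all 4 genes high values came from labelled replicates 1 and 3 and WT replicates 1 and 4. Over these markers the median was -0.15, with 10 of 14 negative (45.6% of all genes). The median changed sign when labelled replicate 2 or 4 or WT replicate 1 was left out (0.09, 0.12 and 0.11), was 0.66 without labelled replicates 2 and 4, was 0.18 with library weights, and was -0.64 with limma-voom and -0.50 with a pseudocount of 0.1. Leaving out any other library gave between -0.47 and -0.04. Spp1, osteopontin, was among the 4 with a positive value, at 83.4, 22.6, 68.2, 30.2 and 60.7 CPM in the labelled libraries, in order of replicate, against 56.1, 30.5, 20.8, 34.6 and 27.7 CPM in WT, and a log2 fold change of 0.55 ± 0.36.

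**Figure D3:**
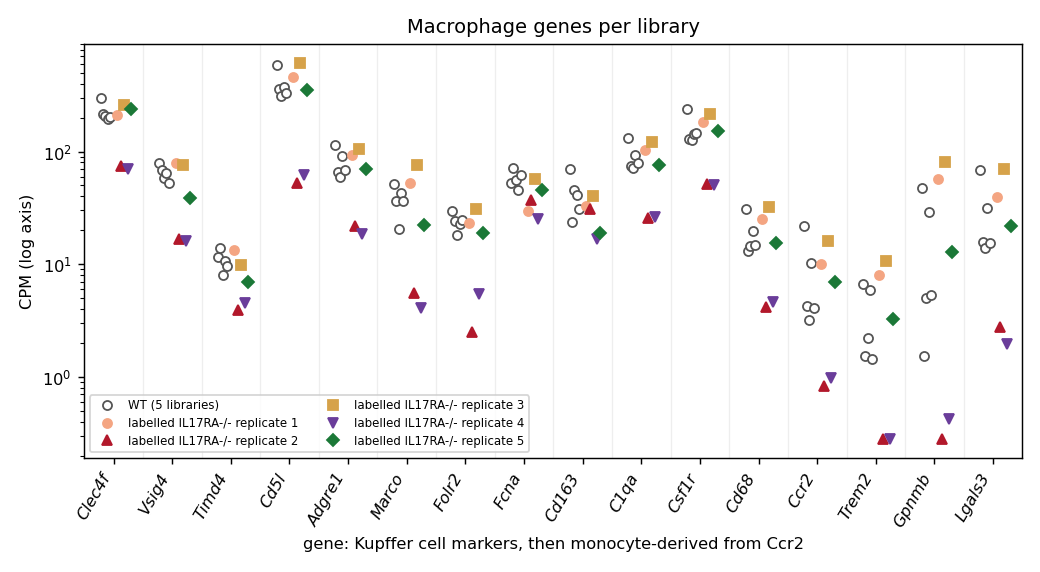
CPM on a log axis for 12 Kupffer cell markers and 4 markers of monocyte-derived macrophages (from Ccr2 on); each point is 1 library, open circles WT and filled symbols labelled IL17RA-/-. Red and purple triangles (labelled replicates 2 and 4) lie at the bottom in most genes and not in Fcna and Cd163, while labelled replicates 1, 3 and 5 lie among or above the WT libraries in most genes.

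Other non-parenchymal genes shared this order in part. MHC class II genes, which present antigen, were listed with dendritic cell markers, and 8 of 9 tested members were negative (45.6% of all genes). The median of this list was -0.28, and 0.50 without labelled replicates 2 and 4. The class II invariant chain Cd74 was at 169, 41.3, 224, 40.5 and 111 CPM in labelled replicates 1 to 5 and 238, 80.3, 78.5, 109.7 and 114 CPM in WT replicates 1 to 5, with those 2 libraries lowest. For H2-Aa, a class II chain, the log2 fold change was -0.33 ± 0.60. In the stellate cell and fibrosis list, Col3a1, a fibrillar collagen, was at 142, 30.7, 193, 23.8 and 78.7 CPM in labelled replicates 1 to 5, and at 174, 41.2, 64.9, 94.4 and 48.7 CPM in WT replicates 1 to 5. Labelled replicates 2 and 4 were both lowest in 8 of 18 members, against 16.5% of all genes. The list median was -0.10 with all libraries and 0.25 without those 2. Col1a1, Acta2 and Timp1, a collagen, smooth muscle actin and a protease inhibitor, had 0.08 ± 0.67, -0.43 ± 0.25 and 0.27 ± 0.36. Sinusoidal endothelial markers varied less. Stab2, a scavenger receptor of these cells, was at 169.8, 119, 195, 129.5 and 180.3 CPM in the labelled libraries, in order of replicate, against 193, 179.7, 155, 172 and 177 CPM in WT, again lowest in labelled replicates 2 and 4. Clec4g and Lyve1, also of these cells, had -0.15 ± 0.18 and -0.26 ± 0.45, and the summed level of the list ran from 611 to 855 CPM in labelled and from 696 to 901 in WT libraries. Bile duct and progenitor markers were low, and all 5 tested were positive (54.4% of all genes) with a median of 0.11. Sox9 and Epcam had 0.49 ± 0.21 and 0.24 ± 0.23, and Krt19 was at 0 to 0.891 CPM. Hepatocyte identity genes had 12 of 19 positive, a median of 0.03 (-0.10 without labelled replicates 2 and 4) and a summed level from 78340 to 95480 CPM in labelled and from 79690 to 95400 in WT libraries. The part of the lower non-parenchymal level in the sterol gene values of labelled replicates 2 and 4 was not tested.

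Interferon response genes had both their highest and their lowest list mean in the labelled group, 5.39 in replicate 5 and 3.22 in replicate 2 on the log2 scale, against 3.91 to 5.19 in WT. Of 29 members, 27 were negative (45.6% of all genes) with a median of -0.26. Irf7, a transcription factor induced by interferon, was at 52.8, 23.9, 84, 44.3 and 169 CPM in labelled replicates 1 to 5 and 113, 75.2, 44.1, 58.9 and 62.4 CPM in WT replicates 1 to 5. Labelled replicate 5 was the highest and labelled replicate 2 the lowest of the 10. Ifit1 and Isg15, antiviral effectors, had log2 fold changes of -0.36 ± 0.50 and -0.54 ± 0.46. The list median was -0.52 without labelled replicate 5, -0.02 without labelled replicate 2, -0.17 without labelled replicate 4, 0.17 without replicates 2 and 4, and -0.12 and -0.42 without WT replicates 1 and 3. Acute phase genes were split by library as well, with a median of -0.10, and 0.14 without labelled replicates 2 and 4. Saa2, a serum amyloid A gene with a near-identical copy in Saa1, was at 76.8, 8.93, 109, 15.3 and 97.2 CPM in labelled replicates 1 to 5, and at 153, 69.4, 60.8, 77.9 and 74.8 CPM in WT replicates 1 to 5, and Orm2, an orosomucoid, at 53.3, 6.9, 62.3, 17 and 71.8 CPM in the labelled libraries, in order of replicate, against 74.7, 37.4, 30, 48.6 and 38.4 CPM in WT. Both were lowest in labelled replicates 2 and 4. Hp, haptoglobin, had -0.10 ± 0.22, and the summed level of the 23 acute phase genes overlapped, at 20340 to 26690 CPM in labelled and 20350 to 26610 CPM in WT libraries.

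Outside the sterol genes, the genes whose groups did not overlap came from many functions. All genes without overlap made up 0.334% (higher) and 0.0796% (lower) of those tested. Such genes also arise when libraries are divided without regard to genotype, and whether there were more than that was not tested. Among the highest-ranked of the 42 higher genes, Ugt1a5, a glucuronosyltransferase that shares exons with the rest of its locus, was at 37.3, 47.7, 29.2, 74.4 and 52.5 CPM in labelled replicates 1 to 5 and 25.6, 27.1, 20.3, 27.6 and 19.5 CPM in WT replicates 1 to 5. Labelled replicate 4 was highest and the narrowest gap was that of replicate 3. Its log2 fold change was 0.92 ± 0.22. Raet1e, a ligand of the natural killer cell receptor NKG2D, was at 8.92, 6.96, 4.49, 7.42 and 3.82 CPM in labelled replicates 1 to 5, and at 3.54, 3.31, 2.2, 2.03 and 3.15 CPM in WT replicates 1 to 5, with a log2 fold change of 0.90 ± 0.22. Aldoc, the brain-type aldolase, was at 6.74, 10.2, 4.6, 8.72 and 5 CPM in the labelled libraries, in order of replicate, against 4.06, 3.68, 2.05, 2.97 and 3.8 CPM in WT; its labelled replicates 2 and 4 were highest. Trmt5, a tRNA methyltransferase, was at 8.5, 7.53, 9.65, 6.89 and 8.8 CPM in labelled replicates 1 to 5 and 5.83, 5.82, 5.68, 5.79 and 5.51 CPM in WT replicates 1 to 5. The WT libraries lay close together and labelled replicates 2 and 4 were the lowest of the labelled group. The log2 fold change was 0.46 ± 0.12 with all libraries and 0.57 without those 2. Zfp276, a zinc finger gene, was at 31.6, 30.7, 28.8, 31.6 and 30.1 CPM in labelled replicates 1 to 5, and at 25.6, 20.8, 24.5, 22.5 and 18.9 CPM in WT replicates 1 to 5, a narrow range in the labelled group. Spata2l, near Zfp276 on chromosome 8, had a log2 fold change of 0.43 ± 0.13, and Phf13, a chromatin reader, one of 0.47 ± 0.15.

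Of the 10 lower genes, 2 were cytochrome P450 genes with close paralogs, so that reads may be shared with their neighbours. Cyp4a32, a fatty acid hydroxylase, was at 11.2, 7.2, 9.8, 12.8 and 11.2 CPM in the labelled libraries, in order of replicate, against 17, 16.3, 18, 16.4 and 17.5 CPM in WT. The WT libraries lay between 16.3 and 18 CPM and the highest labelled library was 12.8, with replicate 2 lowest. For Cyp4a32 the log2 fold change was -0.68 ± 0.14, and -0.62 without labelled replicates 2 and 4. Cyp2c37, of drug and arachidonic acid metabolism, was at 249, 275, 357, 407 and 449.7 CPM in labelled replicates 1 to 5 and 483, 539.7, 646, 479 and 519.5 CPM in WT replicates 1 to 5, with labelled replicates 1 and 2 lowest. Its log2 fold change was -0.64 ± 0.16, and -0.63 without labelled replicates 2 and 4. Gsto1, a glutathione transferase, was at 63, 59.6, 77.5, 69.9 and 75.2 CPM in labelled replicates 1 to 5, and at 81, 83.6, 90.8, 89.3 and 88.5 CPM in WT replicates 1 to 5, and Stub1, a chaperone-linked ubiquitin ligase, at 28.7, 26.6, 27.7, 27.9 and 28.6 CPM in the labelled libraries, in order of replicate, against 32.6, 30.5, 32, 32.1 and 30.6 CPM in WT. Both gaps between the groups were small beside the levels. Mrpl14, of the mitochondrial ribosome, was at 17.5, 15.6, 21.4, 21.4 and 18.3 CPM in labelled replicates 1 to 5 and 22.4, 23.1, 30, 23.5 and 22 CPM in WT replicates 1 to 5. WT replicate 3 stood apart, and the log2 fold change was -0.35 ± 0.12. Limma's adjusted p was 1 for each of these genes.

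**Figure D4:**
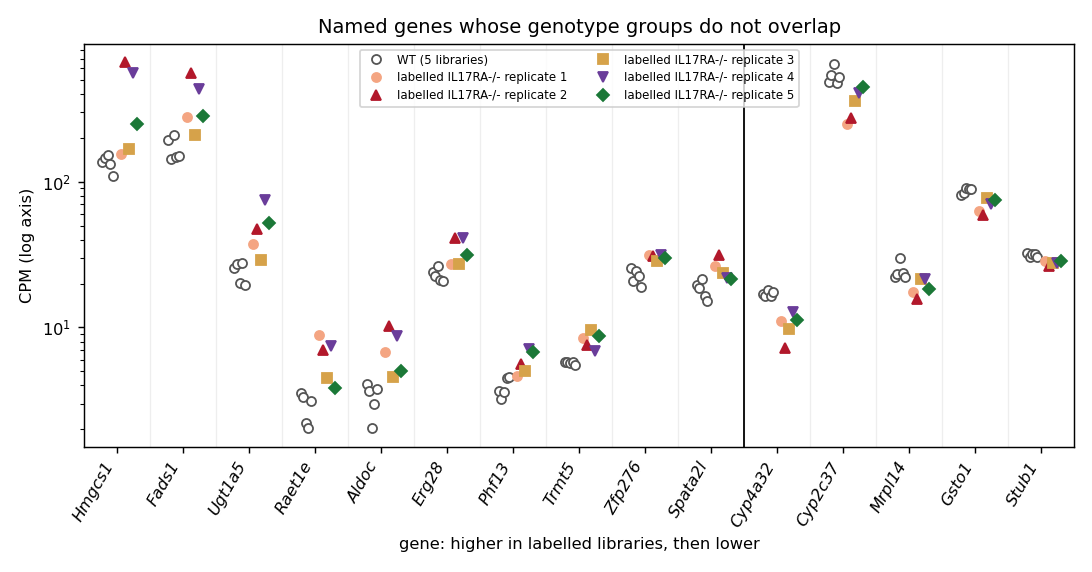
CPM on a log axis for the 15 named genes whose genotype groups did not overlap, 10 higher and, right of the line, 5 lower in labelled libraries; each point is 1 library, open circles WT and filled symbols labelled IL17RA-/-. In Hmgcs1, Fads1, Aldoc and Erg28 labelled replicates 2 and 4 are the top 2 points, and in Zfp276 and Stub1 the labelled libraries lie close together.

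Chosen by the gap alone, the genes in which labelled replicates 2 and 4 both lay farthest above the other 8 libraries were Idi1, Moxd1, Fdps, Msmo1, Adgrf1 and Tm7sf2. Moxd1, a monooxygenase, was at 0, 166, 0.149, 116 and 2.59 CPM in labelled replicates 1 to 5, and at 0.542, 25.1, 0, 0.283 and 7.87 CPM in WT replicates 1 to 5, and WT replicate 2, at 25.1 CPM, was next. Adgrf1, an adhesion receptor, was at 0.321, 22.2, 0.297, 20 and 5.87 CPM in the labelled libraries, in order of replicate, against 0.948, 2.14, 0.474, 1.41 and 2.49 CPM in WT. The genes farthest below were Cd5l, Mmp12, Lgals3, Saa2, Gsta1 and Marco. Gsta1, a glutathione transferase and NRF2 target, was at 100, 3.49, 157, 15.1 and 125 CPM in labelled replicates 1 to 5 and 75.2, 52.6, 97.6, 78.6 and 53.3 CPM in WT replicates 1 to 5, with labelled replicates 1, 3 and 5 above the WT range. Without those 2 libraries the log2 fold change turned its sign in 9 of these 12, all but Idi1, Fdps and Msmo1; Moxd1 went from 1.49 ± 1.56 to -1.09 and Gsta1 from -0.72 ± 0.85 to 0.84. These 12 were chosen by the values of the same libraries and are a description with no test.

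Sex-biased liver genes, which follow the pulses of growth hormone, also split the libraries without regard to label. Hsd3b5, a male-biased steroid dehydrogenase, was at 1.6, 224, 4.75, 227 and 85.2 CPM in labelled replicates 1 to 5, and at 6.77, 167, 7.11, 35.5 and 122 CPM in WT replicates 1 to 5. Each group held libraries under 10 CPM and libraries over 100. Elovl3, a male-biased elongase, was at 112, 583, 76.8, 402 and 46.8 CPM in the labelled libraries, in order of replicate, against 42.4, 396, 151, 60.5 and 167 CPM in WT, highest in labelled replicates 2 and 4 and WT replicate 2. Cyp2d9 and Cyp4a12a, male-biased P450 genes, had -0.22 ± 0.25 and 0.25 ± 0.17. The mean log2 level of the 13 male-biased genes was 9.87 and 9.60 in labelled replicates 2 and 4, 9.30 and 9.02 in WT replicates 2 and 5, and 7 and 7.5 in labelled replicate 1 and WT replicate 1. The list median was 0.07, and -0.70 without labelled replicates 2 and 4. Sex is not given in the labels used here, and no Y-linked gene was listed. Of the female-biased genes, Cyp2a4 was at 49.6, 10.6, 133, 99.4 and 795 CPM in labelled replicates 1 to 5 and 134, 65.3, 78.9, 599 and 253 CPM in WT replicates 1 to 5, highest in labelled replicate 5 and next in WT replicate 4. The list median was -0.28 with all libraries and 0.20 without labelled replicates 2 and 4. Cyp2b9, another female-biased P450 gene, was at 59.7, 0.976, 69, 14.2 and 38.3 CPM in labelled replicates 1 to 5, and at 43.3, 49.8, 199.8, 53 and 52.2 CPM in WT replicates 1 to 5, with labelled replicates 2 and 4 lowest and WT replicate 3 highest. Sult2a1 was at 0 to 0.153 CPM.

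Genes of drug metabolism were lower in labelled means in 15 of 23 (45.6% of all genes), with a list median of -0.17. Cyp2b13, a female-biased P450 gene with close paralogs, was at 2.57, 0.14, 5.95, 0.984 and 3.98 CPM in the labelled libraries, in order of replicate, against 3.94, 5.82, 36.3, 7.22 and 10.8 CPM in WT. WT replicate 3 was far above the other 9 libraries, and the log2 fold change was -1.75 ± 0.58. Cyp3a11, Cyp2c29 and Cyp2b10, which metabolise many drugs, and Nr1i3, the gene of the sensor CAR, had -0.17 ± 0.52, -0.09 ± 0.36, 0.33 ± 0.56 and -0.34 ± 0.33. The list median was -0.04 without labelled replicate 2, -0.11 without WT replicate 3, -0.26 without labelled replicate 3 and -0.06 with library weights. It turned to 0.04, with 12 of 23 positive, without labelled replicates 2 and 4, against 0.094 for all genes. Among the NRF2 antioxidant genes 16 of 22 were negative (45.6% of all genes) with a median of -0.06. Without labelled replicates 2 and 4, however, 19 of 22 were positive with a median of 0.21, against 0.094 for all genes. Nqo1, a quinone reductase, was at 23.7, 3.77, 25.7, 7.59 and 34 CPM in labelled replicates 1 to 5 and 16, 12.9, 9.79, 16.7 and 9.97 CPM in WT replicates 1 to 5. Labelled replicates 1, 3 and 5 were above all WT libraries and replicates 2 and 4 below all of them, which left a log2 fold change of 0.19 ± 0.49. Gclc, Gclm and Srxn1, of glutathione synthesis and peroxide repair, had -0.16 ± 0.16, -0.05 ± 0.12 and -0.23 ± 0.43.

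Bile acid and ethanol oxidation genes were close to level with all libraries. Bile acid genes had a median of 0.04 over 17 members, or -0.10 without labelled replicates 2 and 4. At an unadjusted p under 0.05 there were 0, against 2.45% of all genes. The rate-limiting enzyme Cyp7a1 was at 444, 60.8, 497, 162 and 828 CPM in labelled replicates 1 to 5, and at 303, 345, 569.6, 239.5 and 340 CPM in WT replicates 1 to 5, and its highest and lowest values were both in labelled libraries. Cyp8b1, Abcb11, Slc10a1 and Nr0b2, of cholic acid synthesis, bile salt export, bile salt uptake and feedback repression, had -0.22 ± 0.24, 0.07 ± 0.16, -0.10 ± 0.15 and 0.22 ± 0.30. Ethanol oxidation genes had a median of 0.01 over 10 tested members, and Cyp2e1, the ethanol-inducible P450, was at 5488 to 7983 CPM over the 10 libraries with a log2 fold change of -0.15 ± 0.16. Adh1, Aldh2 and Cat, the dehydrogenases and catalase that clear ethanol and acetaldehyde, had 0.04 ± 0.12, 0.01 ± 0.09 and -0.02 ± 0.14.

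In the growth hormone and IGF axis list 6 of 10 were negative (45.6% of all genes) with a median of -0.17. At an unadjusted p under 0.05 there were 2 lower members (0.748% of all genes in that direction). Igfbp1, an insulin-repressed binding protein of this list, was at 97.5, 198, 223, 134 and 69 CPM in the labelled libraries, in order of replicate, against 302, 159, 349.5, 306 and 279 CPM in WT. WT replicate 2 was inside the labelled range and the other 4 WT libraries were above it. The log2 fold change was -1.03 ± 0.31, and -1.23 without labelled replicates 2 and 4. Igf1 and Socs2, a growth hormone output and its feedback inhibitor, had 0.15 ± 0.14 and -0.21 ± 0.53. Cell cycle genes had 17 of 27 positive (54.4% of all genes) with a median of 0.10. Without labelled replicates 2 and 4 all 27 were positive with a median of 0.48, against 0.094 for all genes. Mki67, a proliferation marker, was at 33.5, 5.72, 41.1, 10.5 and 42.8 CPM in labelled replicates 1 to 5 and 27.6, 13.9, 13.7, 17 and 14.4 CPM in WT replicates 1 to 5, with labelled replicates 1, 3 and 5 the 3 highest and labelled replicates 2 and 4 the 2 lowest. The tumour marker Afp was at 3.53, 0.976, 8.02, 7.59 and 32.4 CPM in labelled replicates 1 to 5, and at 7.45, 1.99, 2.84, 29 and 6.56 CPM in WT replicates 1 to 5, highest in labelled replicate 5 and WT replicate 4.

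The last lists differed between libraries of the same label. Hamp, hepcidin, the hormone that lowers iron uptake, was at 73.6, 219, 25.1, 130.3 and 29 CPM in the labelled libraries, in order of replicate, against 20.1, 43.8, 40.1, 20.4 and 121 CPM in WT. Labelled replicates 2 and 4 and WT replicate 5 were highest, and the log2 fold change of 0.81 ± 0.63 was -0.04 without labelled replicates 2 and 4. Apoa4, an apolipoprotein of steatotic liver, was at 1585, 189.7, 1553, 197 and 422 CPM in labelled replicates 1 to 5 and 1321, 350.1, 711, 1371 and 516 CPM in WT replicates 1 to 5, lowest in labelled replicates 2 and 4, while Apoa1, Apob and Mttp had 0.04 ± 0.17, 0.00 ± 0.21 and 0.06 ± 0.08. Of the endotoxin sensing genes 9 of 11 were negative with all libraries (45.6% of all genes). Without labelled replicates 2 and 4, 9 of 11 were positive, with a median of 0.09 against 0.094 for all genes. Those 2 libraries were both lowest in 6 of 11, against 16.5% of all genes. The values were -0.43 ± 0.37 for the receptor gene Tlr4, -0.58 ± 0.49 for its co-receptor Cd14 and -0.22 ± 0.16 for Ly96. Stress response genes had a median of 0.01 over 23, or -0.16 without labelled replicates 2 and 4, with 0.01 ± 0.24 for the chaperone gene Hspa5, 0.46 ± 0.23 for Ddit3, -0.04 ± 0.13 for Atf4 and -0.30 ± 0.32 for Trib3. Immediate early genes had 15 of 16 negative (45.6% of all genes) with a median of -0.26. Without labelled replicates 2 and 4, 4 of 16 were positive and the median stayed negative at -0.13, against 0.094 for all genes. Those 2 libraries were both lowest in 2 of 16 (16.5% of all genes). The list means overlapped, at 2.93 to 4.15 in labelled and 3.5 to 4.55 in WT libraries on the log2 scale. Fos was at 1.92, 9.21, 14.4, 1.83 and 4.83 CPM in labelled replicates 1 to 5, and at 8.67, 5.21, 5.05, 4.81 and 25.1 CPM in WT replicates 1 to 5, and WT replicate 5 was the highest of the 10. Jun and Egr1 had -0.31 ± 0.40 and -0.03 ± 0.38. Glucose genes had a median of -0.04, or 0.16 without labelled replicates 2 and 4, with 0.12 ± 0.18 for Pck1, -0.24 ± 0.42 for G6pc and 0.20 ± 0.15 for Pklr. Clock genes had a median of 0.01, between -0.29 and 0.31 over 19 tested.

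**Figure D5:**
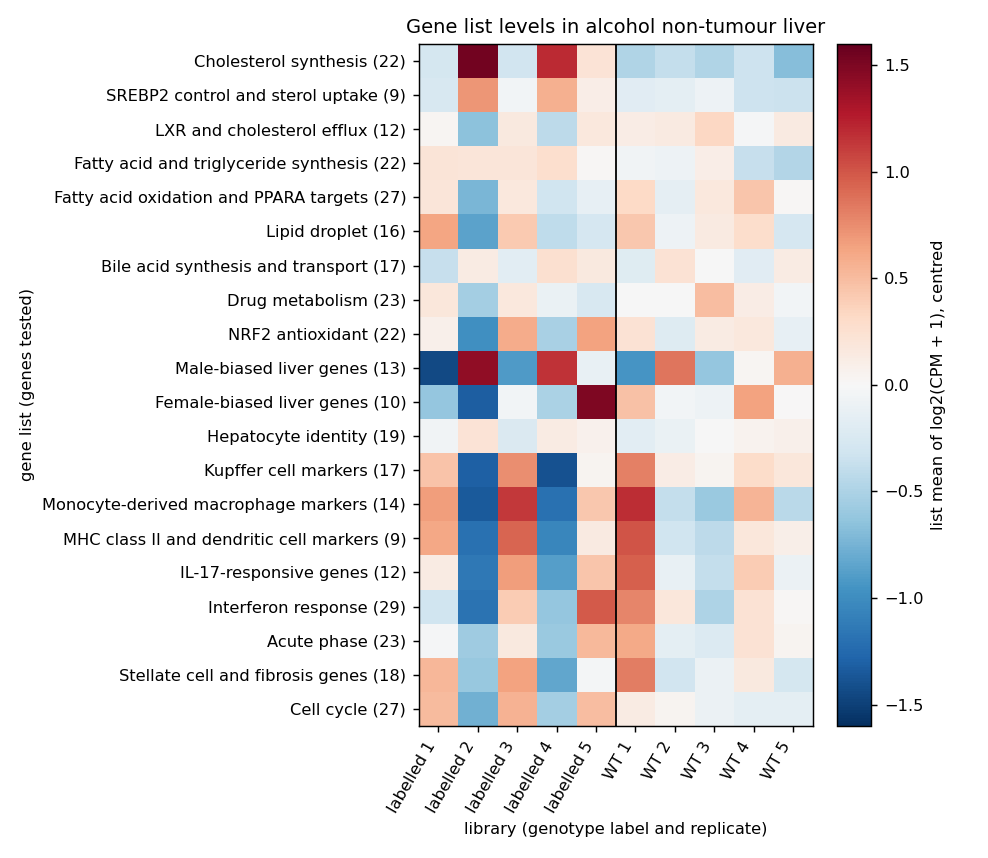
Mean log2(CPM + 1) of each gene list in each library, less its mean over the 10 libraries (colour scale; number of genes tested in brackets); the line divides libraries labelled IL17RA-/- from WT. Labelled replicates 2 and 4 are red in cholesterol synthesis and male-biased genes and blue in the macrophage lists, and WT replicate 1 and labelled replicate 3 share the opposite macrophage pattern.

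The same genotype contrast was made in non-tumour liver on HFD, with 3 libraries a group, and the difference between the 2 contrasts was tested over 16 libraries. For the difference limma called 0 of 12829 genes (0%), and 529 (4.12%) were at an unadjusted p under 0.05. For genotype on HFD, taken from the same fit of 16 libraries, it called 0 as well, with 461 (3.59%) at that level. On HFD the cholesterol list had a median log2 fold change of 0.00 with 10 of 22 positive (26.8% of all genes), against 0.95 with 21 of 22 on alcohol. Its mean log2 level was 4.6, 5 and 5.54 in the labelled and 5.31, 4.9 and 4.95 in the WT libraries on HFD, overlapping. The median of the difference between the treatments was -0.87 over the list against -0.135 over all genes, and 2 of the 22 were at an unadjusted p under 0.05. Without labelled alcohol replicates 2 and 4 the alcohol median was 0.35. Other lists had differences of similar size. Cell cycle genes had -0.91, with 3 of 27 at an unadjusted p under 0.05 and 0 of 27 positive on HFD. The list of MHC class II genes and dendritic cell markers had -0.71 with 0 at that level, and fatty acid synthesis genes -0.61 with 5 of 22. Idi1 was at 9.96, 19.4 and 35.3 CPM in the 3 labelled and 25.2, 18.7 and 17.7 CPM in the 3 WT libraries on HFD, and Hmgcs1 at 119.6, 179 and 209 CPM in the 3 labelled and 175, 152 and 149.7 CPM in the 3 WT libraries. Fads1 was at 277, 141 and 271 CPM in the 3 labelled and 257, 186 and 392 CPM in the 3 WT libraries, with a log2 fold change of -0.27 there. Kupffer cell markers had a median of -0.61 on HFD, with 0 of 17 positive (73.2% of all genes were negative). The list's mean log2 level there was 5.3, 5.58 and 5.19 in labelled libraries and 6.46, 5.5 and 5.94 in WT, where replicate 1 was the highest. Cyp2c37 was at 277, 646 and 355 CPM in the 3 labelled and 151, 537 and 128 CPM in the 3 WT libraries, with a log2 fold change of 0.87. Over all genes the median log2 fold change on HFD was -0.117. The median of the difference over all genes became 0.003 after rescaling. The fold changes of the 2 contrasts share no libraries. The p-values on HFD, however, rest on the spread within all 16 libraries, labelled alcohol replicates 2 and 4 included.

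The genes around Il17ra on chromosome 6 were examined as well. Of 57 genes listed whose start lies within 2.5 Mb of its start, 40 were tested. Their log2 fold changes were positive in 20 and negative in 20, with a median of -0.01 and a range of -0.43 to 0.39. None was at an unadjusted p under 0.05 (2.45% of all genes) and none had groups that did not overlap (0.414% of all genes). With shares that small, a count of 0 among 40 genes says little about the locus. Mug2, a murinoglobulin with a close paralog and chosen after its values were seen, was at 25.4, 39.7, 75.9, 1282 and 1454 CPM in the labelled libraries, in order of replicate, against 55.7, 1019, 55.6, 1178 and 37 CPM in WT. Labelled replicates 4 and 5 and WT replicates 2 and 4 were high, and the other 6 were under 100 CPM, a split that crossed the labels.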

How the data were processed

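RNA was measured in bulk non-tumour mouse liver: 5 alcohol libraries labelled IL17RA-/- and 5 WT, with 6 libraries from mice on HFD for 1 comparison. Per the labels' protocols, RNA came from a Purelink kit and libraries were polyA-selected and stranded. The authors deposited CPM values, counts scaled to a common library total, per gene and library; STAR 2.5.1a, RSEM 1.3.0 and the GRCm38 build are named in the submitters' processing notes, and the sources used here do not state the annotation or filters. Symbols and positions came from GENCODE M21. The steps of the CPM values gave back expected counts, of which 84.2% to 84.7% were whole within 0.002, the rest being fractions from reads shared between genes; depth was 5795338 to 7625517 and limits low genes.

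The tested genes, those that reached 1 CPM in 3 libraries, were fitted as log2(CPM + 1) with limma 3.58.1 (trended, R 4.3.3), two-sided, with Benjamini-Hochberg adjustment over all genes and a threshold of 0.05. Fold changes on this scale understate low genes. The procedure was tested on simulated data with independent noise for each gene. The simulation lacked the joint departure of labelled replicates 2 and 4, so it does not measure the power in these libraries. Samples were grouped by genotype and treatment labels; HFD and alcohol were compared with an interaction term over 16 libraries. Alternatives were no filter, a pseudocount of 0.1, median-ratio rescaling, limma-voom, library weights, a fit of all 16 libraries together and blocking on replicate number. Each alcohol library was also left out in turn, and labelled replicates 2 and 4 together. No single HFD library was left out, although some HFD non-tumour libraries were doubted in earlier work.

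Members and the 43 gene lists were chosen with earlier results of these data known. Named genes were Il17ra, up to 10 each way without overlap between groups whose higher group averaged at least 5 CPM, list members marked for naming, list members without overlap, and up to 6 each way by the gap of labelled replicates 2 and 4. Predicted genes were left out, and other list members named were chosen after their values were seen. Tumour libraries were not used, and some list members are not reported here.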

Additional observations from a re-analysis of the deposited data

Results flagged for a closer look

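Of 78 groups of 5 values examined, 3 held a library whose gap to the next one took up more than 0.71 of the group's range (Dixon's critical value for 5 samples), and chance gives about 1 in 20. Mrpl14, of the mitochondrial ribosome, was at 30 CPM in WT replicate 3, the highest of the WT group. Cd5l, the scavenger protein of macrophages, was at 583 CPM in WT replicate 1, and Saa2, a serum amyloid A gene, was at 153 CPM in the same library, each the highest of the WT group. WT replicate 1 also had the highest WT values of Gpnmb, Lgals3 and Mmp12 described above.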

How the results depend on the processing

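No gene was called by limma under any of the 18 alternatives for genotype on alcohol or the 15 for the difference between treatments. None of the 15 left out an HFD library, so they do not show how the difference depends on those libraries. Of 31 genes followed under all 18, those named by rank, by absence of overlap or by the gap of labelled replicates 2 and 4, with Il17ra, Cyp51 and Nsdhl, 21 kept their direction in each and 10 did not, and the smallest adjusted p was 0.409. Without labelled replicates 2 and 4 the log2 fold change turned to -1.09 for Moxd1, -0.06 for Adgrf1, -0.04 for Tm7sf2, 0.28 for Cd5l, 0.70 for Mmp12, 0.70 for Lgals3, 0.18 for Saa2, 0.84 for Gsta1, 0.31 for Marco and 0.25 for Il17ra. Leaving out 1 library gave Gsta1 -1.19 to 0.10, positive without labelled replicate 2, and Il17ra -0.22 to 0.11, no longer negative when WT replicate 1, WT replicate 5, labelled replicate 2 or labelled replicate 4 was omitted. Over all genes the smallest adjusted p was 0.271 without labelled replicates 2 and 4 and 0.529 with no filter. Genes at an unadjusted p under 0.05 numbered 175 to 334 higher and 61 to 236 lower when 1 library was left out. The highest count of higher genes came without labelled replicate 2, and the lower genes numbered 61 without WT replicate 5, 236 without labelled replicate 3 and 150 without labelled replicate 5. Without labelled replicates 2 and 4 there were 568 higher, with median-ratio rescaling 159 lower and with no filter 160 lower. Without those 2 libraries the median of the SREBP2 control list moved to 0.16, that of the Kupffer cell list to 0.18 and that of drug metabolism to 0.04. The median over all genes was then 0.094. Leaving out 1 library gave medians of 0.68 to 1.14 for cholesterol synthesis, 0.32 to 0.57 for SREBP2 control, -0.23 to -0.09 for LXR and efflux, 0.29 to 0.45 for fatty acid synthesis, -0.24 to -0.11 for fatty acid oxidation, -0.82 to -0.31 for Kupffer cell markers, -0.47 to 0.12 for monocyte-derived macrophage markers, -0.54 to -0.08 for IL-17-responsive genes, -0.52 to -0.02 for interferon genes and -0.26 to -0.04 for drug metabolism. The cause of these moves was not tested. Deviations of same-numbered libraries from their group means had correlations of 0.415, 0.247, -0.137, -0.164 and -0.003 for numbers 1 to 5. The highest of any labelled and WT pair was 0.511, for labelled replicate 3 with WT replicate 1. These values do not tell whether libraries of the same number share more than the number. With the replicate block limma called 0, with 203 higher and 116 lower at an unadjusted p under 0.05, and 0 for the difference between treatments. Depth limits genes near 3 counts, 0.393 to 0.518 CPM, such as Trem2, Gpnmb and Mmp9 in labelled replicates 2 and 4.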
